A study of Mus musculus with 6 samples.

Results

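The let-7 family without let-7e was followed as 8 mature microRNAs (miRNAs). They were selected by their names on a mouse miRNA array, which were mmu-let-7a, mmu-let-7b, mmu-let-7c, mmu-let-7d, mmu-let-7f, mmu-let-7g, mmu-let-7i and mmu-miR-98, where mmu stands for mouse and is dropped below. They make up 8 of the 611 mouse miRNAs on the array. Detection of a miRNA required at least 1 of its probes to have 50% or more of its spots marked by the scanner as well above background. All 8 members were detected on all 6 arrays, as were 110 of the 611 miRNAs, whereas 452 were detected on none. No member therefore entered the comparison through only 1 genotype.

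The study asked which miRNAs act downstream of Notch signalling in macrophage polarization. Total RNA of bone-marrow-derived macrophages (BMDMs), which are macrophages grown from marrow precursors, was labelled with Cy3 and hybridised to 1-colour arrays, 1 array per sample. The KO group held 3 samples from MxCre-RBP-Jf/f mice, in which both alleles of the gene for RBP-J are floxed. The WT group held 3 samples from MxCre-RBP-Jf/+ mice, which carry 1 floxed allele, so the animals titled WT were heterozygous controls. RBP-J binds DNA and is needed for Notch receptors to activate their target genes. In both groups the mice were female C57BL/6, carried Cre under the interferon-inducible Mx promoter and received poly(I)-poly(C), and the BMDMs were given lipopolysaccharide (LPS) for 24 h. The labels give no age. The Mx promoter is not restricted to macrophages, so deletion in other cells of the mouse is part of the model. The array holds no probe for RBP-J mRNA and so cannot show the deletion. Replicate numbers in the labels do not say whether samples came from separate animals or cultures. The p-values therefore measure the spread between these samples, which may be technical.

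The let-7 miRNAs are short RNAs that guide Argonaute proteins to mRNAs pairing with their seed, bases 2 to 8, and thereby lower translation and mRNA stability. The family was found through its role in developmental timing in Caenorhabditis elegans. In mammals its mature forms accumulate as cells differentiate, while LIN28 proteins block maturation of the precursors in stem cells, and known targets include mRNAs of Ras proteins and of Hmga2. The mature sequences are shown because the members share 1 seed and are told apart on an array only by a few bases outside it. RefSeq sequences of build GRCm38.p6 were found for 8 of 8 members, printed 5′ to 3′ with the seed in capitals.
let-7a: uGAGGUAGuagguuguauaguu
let-7b: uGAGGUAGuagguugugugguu
let-7c: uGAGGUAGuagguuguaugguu
let-7d: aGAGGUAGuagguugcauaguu
let-7f: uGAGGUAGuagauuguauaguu
let-7g: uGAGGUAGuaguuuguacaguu
let-7i: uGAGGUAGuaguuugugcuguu
miR-98: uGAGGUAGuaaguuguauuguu
let-7e: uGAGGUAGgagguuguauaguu
Each was 22 nt long, and 11 of the 1679 mature miRNA names in the RefSeq table carried this seed. Counted from the 5′ end with let-7a given first, the substitutions were A17G and A19G in let-7b, A19G in let-7c, U1A and U16C in let-7d, and G12A in let-7f. They were G12U and U18C in let-7g, G12U, A17G, U18C and A19U in let-7i, and G11A and A19U in miR-98. let-7e differed from let-7a by U9G. Members differed from each other by 1 to 6 bases. How far a probe of 1 member also binds another was not tested, since probe sequences were not used here, so each value below is the signal of a member's probes.

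The members' genes lie in several clusters of miRNA genes. The mature sequences of let-7a (chr13:48538239-48538260), let-7f (chr13:48537889-48537910) and let-7d (chr13:48536078-48536099) came from the minus strand of chromosome 13, with 261 and 1714 bases between neighbouring hairpins. On the plus strand of chromosome 15 let-7c (chr15:85706616-85706637) preceded let-7b (chr15:85707325-85707346), with 621 bases between the hairpins. A further let-7c gene on chromosome 16 (chr16:77599672-77599693, plus strand) followed the miR-99a gene. On the plus strand of chromosome X a further let-7f gene (chrX:151912353-151912374) preceded miR-98 (chrX:151913229-151913250), with 785 bases between the hairpins. let-7g (chr9:106178846-106178867, plus strand) and let-7i (chr10:122985698-122985719, minus strand) had no other member in their cluster. A further let-7a gene, Mirlet7a-2 on the plus strand of chromosome 9, lies between the miR-100 and miR-125b-1 genes. The array reads the mature RNA, so the genes of let-7a, of let-7c and of let-7f cannot be told apart.

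No member of the family passed the test between KO and WT macrophages. The mean was higher in KO for 7 members and lower for let-7i, with differences of -0.07 to 0.31 on the log2 scale. The median of the 8 differences was 0.12, against 0.11 over all 135 tested miRNAs, so the family's median lay close to that of the tested miRNAs. Levels are log2 signals of the brighter probe of each miRNA, relative to the array's 75th percentile over 200 probes detected on all 6 arrays. The limma test over the 135 miRNAs detected on at least 3 arrays called 0 members, and 0% of all tested miRNAs, at an adjusted p under 0.05. At an unadjusted p under 0.05 there were 0 members and 6 of the 135 miRNAs.

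**Figure D1:**
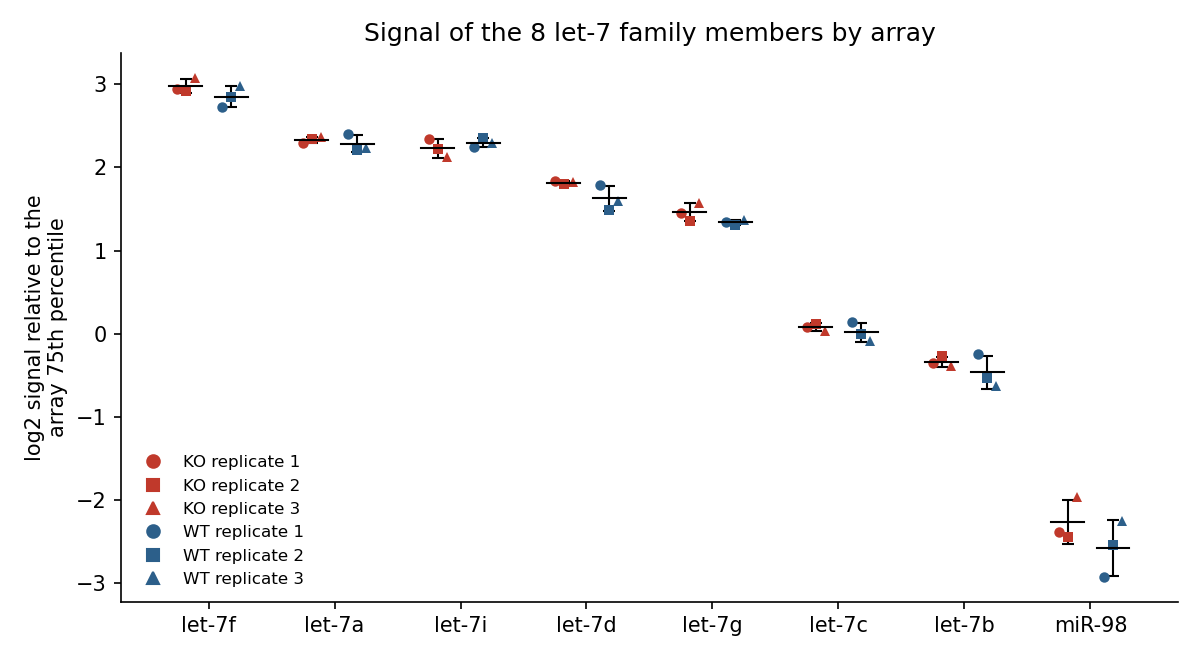
Log2 signal of each member relative to the array's 75th percentile (vertical axis), with KO left of WT for each member, points for the 3 arrays of each genotype, long lines for means and bars for 1 SD. The members span more than 5 log2 units, from about 3 for let-7f to between -2 and -3 for miR-98, and the genotypes overlap for all members except let-7d.

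Among the 3 members encoded on chromosome 13, let-7f was the brightest. Its log2 signal was 2.94, 2.91 and 3.07 in KO replicates 1, 2 and 3, against 2.72, 2.85 and 2.98 in the WT replicates. WT replicate 1 was the lowest of the 6 arrays and KO replicate 3 the highest, with overlap between. The difference was 0.12 (SE 0.16, 95% interval -0.23 to 0.48), with a limma adjusted p = 0.748. It was 0.06 without WT replicate 1 and 0.19 without WT replicate 3. let-7a, the member that serves as the sequence reference above, stood at 2.29, 2.34 and 2.36 in KO and 2.40, 2.21 and 2.24 in WT. All KO values of let-7a lay between the WT values, with a difference of 0.05 (SE 0.15; limma adjusted p = 0.902) that was 0.01 without WT replicate 2, 0.02 without WT replicate 3 and 0.11 without WT replicate 1. let-7d, the member that begins with A instead of U, stood at 1.83, 1.80 and 1.82 in KO and 1.79, 1.49 and 1.59 in WT. It was the 1 member whose KO arrays all lay above the WT arrays, and the gap to WT replicate 1 was small. The genotypes were apart in this way for 10.4% of the 135 tested miRNAs in either direction, which is 14 miRNAs, so 1 of 8 is near the background. The let-7d difference was 0.19 (SE 0.15, 95% interval -0.16 to 0.55; limma adjusted p = 0.668). Without WT replicate 1 it was 0.27 (limma adjusted p = 0.4925), and without WT replicate 2 it was 0.125.

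let-7i and let-7g, which share G12U and U18C, did not show the same order of genotypes. let-7i stood at 2.34, 2.22 and 2.12 in KO and 2.24, 2.35 and 2.30 in WT. Its KO arrays held both the lowest value and one close to the highest, and the difference was -0.07 (SE 0.15, 95% interval -0.41 to 0.28; limma adjusted p = 0.868). It was -0.12 without KO replicate 1, -0.04 without WT replicate 2 and -0.01 without KO replicate 3. let-7g stood at 1.46, 1.36 and 1.57 in KO and 1.34, 1.31 and 1.36 in WT. The WT arrays of let-7g lay close together, KO replicate 2 lay just under the highest of them, and the difference was 0.12 (SE 0.15; limma adjusted p = 0.748), or 0.07 without KO replicate 3.

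let-7c and let-7b, the pair encoded together on chromosome 15, were dimmer. let-7c stood at 0.08, 0.12 and 0.03 in KO and 0.14, -0.0030 and -0.08 in WT, a difference of 0.06 (SE 0.15; limma adjusted p = 0.881). let-7b stood at -0.35, -0.27 and -0.39 in KO and -0.24, -0.53 and -0.63 in WT, a difference of 0.13 (SE 0.17; limma adjusted p = 0.748). In both miRNAs WT replicate 1 was the highest of the 6 arrays and WT replicate 3 the lowest, with the KO arrays in between. Without WT replicate 1 the differences were 0.12 for let-7c and 0.24 for let-7b, and without WT replicate 3 they were 0.01 and 0.05 in the same order. Without KO replicate 2 that of let-7c was 0.04.

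miR-98, which carries the family's seed under a name of its own, was the dimmest member and the most variable. It stood at -2.38, -2.44 and -1.96 in KO, against -2.92, -2.54 and -2.25 in WT. KO replicate 3 was the highest array and WT replicate 1 the lowest, while WT replicate 3 lay above 2 KO arrays. The difference was 0.31 (SE 0.22, 95% interval -0.20 to 0.82; limma adjusted p = 0.637). It was 0.13 without WT replicate 1 and 0.16 without KO replicate 3, against 0.47 without WT replicate 3.

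With this scaling, the 95% intervals of all 8 members lay between 0.751-fold and 1.76-fold, KO over WT. Leaving out single arrays widened the upper end for miR-98 to 2.10-fold without KO replicate 2 and to 2.02-fold without WT replicate 3. The mean log2 signal over the 8 members was 1.03, 1.01 and 1.08 in KO and 0.93, 0.89 and 0.94 in WT, or 1.04 ± 0.04 and 0.92 ± 0.02 (SD, n = 3 each). The KO arrays all lay above the WT arrays by this mean. They also did so, narrowly, by the mean over the 127 tested miRNAs outside the family. There the lowest KO array stood at -1.9457 and the highest WT array at -1.9467. The difference was 0.11 in the family and outside it (0.1149 against 0.1143). Among arrays in column 1 of the slide, replicates 1 and 2, the family's difference was 0.10, against 0.09 for all tested miRNAs. Between the 2 arrays in column 2, replicate 3, it was 0.14, against 0.16. Each slide row held arrays of 1 genotype, so slide row and genotype cannot be told apart.

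**Figure D2:**
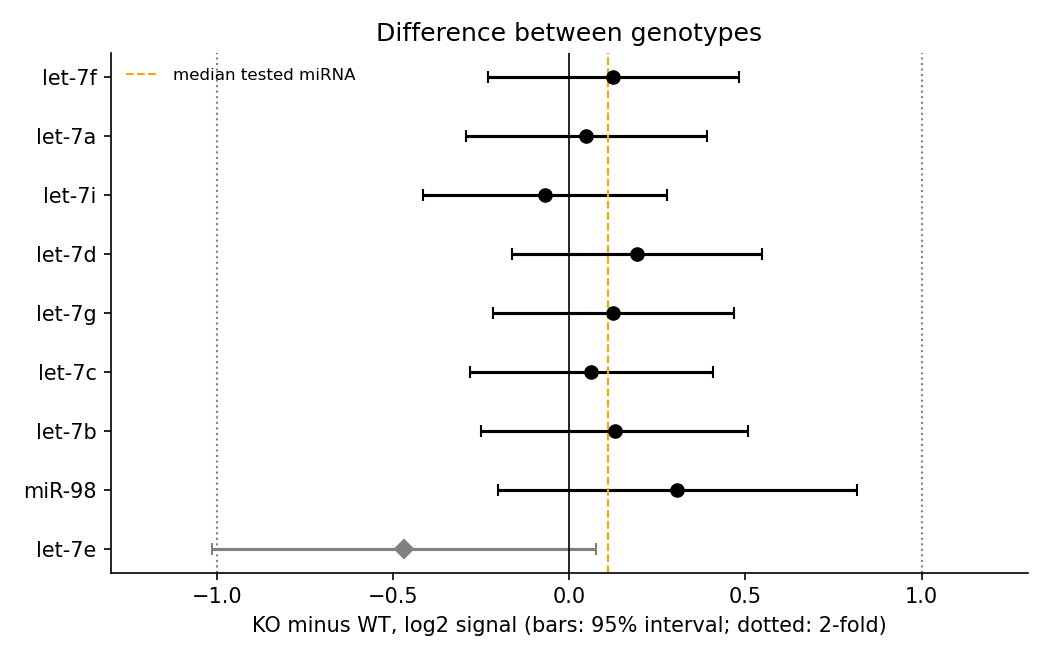
KO minus WT difference in log2 signal (horizontal axis) for each member and, in grey, let-7e, with 95% intervals from the fit over 135 miRNAs, dotted lines at 2-fold and a dashed line at the median tested miRNA. All intervals cross 0, those of the 8 members stay inside the dotted lines, and the members' points gather around the dashed line.

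let-7e, whose gene lies with those of miR-99b and miR-125a, is no member of the set and is given for comparison. Its log2 signal was -0.19, -0.05 and -0.02 in KO and 0.92, 0.04 and 0.19 in WT. All KO arrays lay below the WT arrays, and WT replicate 1 lay far above the other 5. Genotypes were apart in either direction for 10.4% of the 135 tested miRNAs. By share of the summed signal the let-7e arrays overlapped, with 0.3785% in KO replicate 2 against 0.3693% in WT replicate 2. The let-7e difference was -0.47 (SE 0.24; limma adjusted p = 0.637), or -0.20 without WT replicate 1. With all arrays it was outside the range of the 8 members, and whether it differed from theirs was not tested.

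By the brighter probe of each member, the order of brightness within the family was nearly the same on all arrays. From the brightest down it ran let-7f, let-7a, let-7i, let-7d, let-7g, let-7c, let-7b and miR-98, with means over the 6 arrays of 2.91, 2.31, 2.26, 1.72, 1.40, 0.05, -0.40 and -2.42. Of the 7 neighbouring pairs, 6 kept their order on all 6 arrays. The exception was let-7a and let-7i, whose mean gap was 0.05 (SD 0.15, n = 6) and whose order held on 3 of 6 arrays. let-7d lay above let-7g on every array, by 0.32 on average (SD 0.11), though their ranges over the arrays overlapped. The widest steps were from let-7g to let-7c, at 1.35 (SD 0.13), and from let-7b to miR-98, at 2.02 (SD 0.40). This is an order of signal on different probes, not of molecules. The scanner's gene-level totals, which sum the probes of a miRNA, put let-7i above let-7a on 4 of 6 arrays. The mean of each member's probes put let-7i at the top, above let-7f and let-7a, and kept the order of the other 5 members. By the dimmer probes let-7f, at 0.54 to 0.92, lay below let-7a, at 1.02 to 1.21, and let-7i, at 1.29 to 1.70. Those probes also put let-7b above let-7c on every array, with means of -1.39 and -1.58 in KO and -1.42 and -1.63 in WT. The order thus depended on the probe used.

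As a share of the summed signal of all 611 miRNAs, the family took about the same part in both genotypes, with overlap between arrays. In gene-level totals the 8 members together took 9.15%, 9.57% and 9.905% in KO and 9.92%, 8.59% and 10.1% in WT. The means were 9.54% ± 0.379 in KO and 9.55% ± 0.838 in WT (SD, n = 3 each), and the lowest and the highest arrays were both WT. miR-21, the brightest miRNA and one induced by LPS in macrophages, took 45.3% ± 2.68 in KO and 44.8% ± 2.36 in WT (SD, n = 3 each). With miR-21 left out of the total the family's share was 17.5% ± 0.871 in KO and 17.3% ± 1.20 in WT (SD, n = 3 each). The other 2 brightest miRNAs outside the family were miR-1224, at 5.75% in KO and 4.32% in WT, and miR-24, at 3.51% in KO and 3.68% in WT. By rank among the 611 miRNAs, let-7f ran from 4 to 8 over the arrays, let-7i from 7 to 9, let-7a from 8 to 11 and let-7d from 14 to 21. let-7g ran from 17 to 22, let-7c from 31 to 33, let-7b from 34 to 36 and miR-98 from 51 to 72.

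let-7i was the 1 member whose share separated the genotypes. It took 2.03%, 1.98% and 1.87% of the summed signal in KO, against 2.22%, 2.14% and 2.30% in WT. Every KO array lay below every WT array, and the ratio of means was 0.884. Among the 138 miRNAs that the scanner's gene-level call found on all 6 arrays, 10.1% were apart in either direction by this measure, so 1 of 8 members is near the background. Of the family's own summed signal let-7i took 22.2%, 20.7% and 18.9% in KO and 22.3%, 24.9% and 22.7% in WT. The KO arrays lay below here too, but narrowly, with 22.18% in KO replicate 1 against 22.35% in WT replicate 1. This share comes from the same let-7i totals, so it adds no separate evidence, and it has no background over all miRNAs. In the limma fit of scaled gene-level totals its difference was -0.23, with an adjusted p = 0.702. let-7f took 2.38%, 2.52% and 2.82% of the summed signal in KO and 2.32%, 2.24% and 2.85% in WT, with full overlap. let-7a took 1.96% ± 0.112 in KO and 1.95% ± 0.261 in WT (SD, n = 3 each). let-7d averaged 1.25% in KO and 1.17% in WT, and let-7g 1.01% and 0.983% in the same order. The mean shares of let-7c and let-7b differed by less than 1% of their size between genotypes. let-7c took 0.375% in KO and 0.373% in WT, let-7b 0.315% in KO and 0.312% in WT, and miR-98 0.096% in KO and 0.081% in WT.

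**Figure D3:**
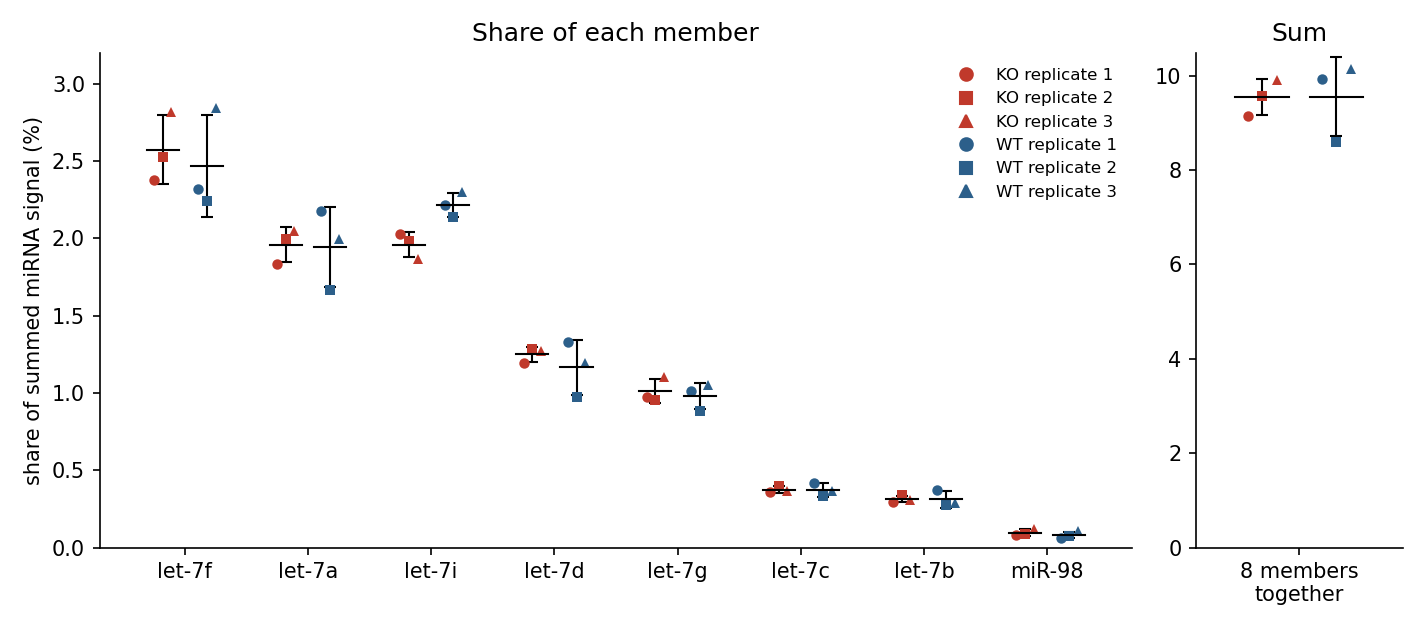
Share of the summed gene-level signal of 611 miRNAs in percent (vertical axis) for each member on the left and for the 8 together on the right, with KO left of WT, a point per array, long lines for means and bars for 1 SD. let-7i is the member whose KO arrays, at 1.87% to 2.03%, all lie below its WT arrays, at 2.14% to 2.30%, and the 8 together stay between 8.59% and 10.1%.

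Before scaling, signal was lower on the KO arrays for the family and for the array as a whole. The family's summed total was 5345, 4379 and 5506 intensity units in KO and 6583, 5449 and 7880 in WT, with KO replicate 3 just above WT replicate 2. The sum over all 611 miRNAs was 53252 ± 6648 units in KO and 69175 ± 7533 in WT (SD, n = 3 each), with every KO array below every WT array. The ratios of means were 0.765 for the family and 0.770 for all miRNAs. Of the members, let-7c and let-7i had all KO totals below all WT totals, 2 of 8, against 27.5% of the 138 miRNAs. The part of this lower summed signal in the members' values was not tested beyond the scalings that follow.

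The sign of most members' differences depended on the scaling. let-7i was lower in KO in every setting named in this paragraph, and let-7d and miR-98 turned negative only with no scaling. With no scaling between arrays 8 of 8 members were lower in KO, with a family mean of -0.34, where the median tested miRNA stood at -0.31. With the 75th percentile over all probes in place of detected ones the family mean was -0.05 and the median tested miRNA -0.04. With quantile scaling the family mean was 0.07 and the median tested miRNA 0. Relative to the median tested miRNA the family therefore stood at 0.0054 with the scaling used here, -0.03 with none, -0.02 with all probes and 0.07 with quantile scaling. With normexp background correction, which adds an offset, it stood at -0.16. let-7i was the lowest member in each of these settings, and the widest difference of any member among them was that of let-7i with no scaling, -0.52 (SE 0.20; limma adjusted p = 0.184).

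**Figure D4:**
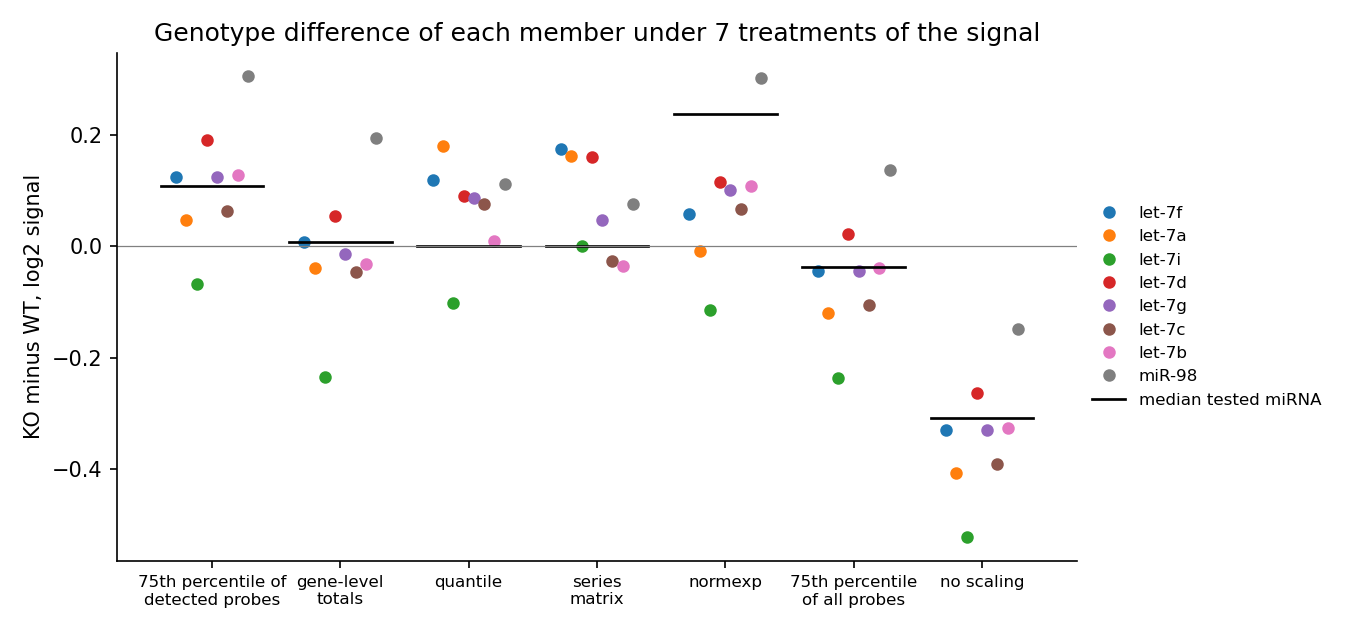
KO minus WT difference in log2 signal (vertical axis) of each member, one colour each, under 7 treatments of the signal, with a line at the median of the 135 tested miRNAs under each treatment. The members lie around the line in most treatments, fall to between -0.15 and -0.52 with no scaling, and all but miR-98 lie below the line with normexp, and let-7i is the lowest member under every treatment except the series matrix.

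The 2 probes of each member agreed closely across arrays. The family was read by 16 probes, 2 per member, each with 7 to 10 usable spots per array, and all 16 were detected on all 6 arrays. Between spots of a probe on 1 array the median coefficient of variation was 2.25% to 9.92%, lowest for a let-7a probe and highest for a miR-98 probe. The brighter probe exceeded the dimmer by 0.52 on the log2 scale for miR-98, a ratio of 1.43-fold, and by up to 2.16 for let-7f, a ratio of 4.46-fold. These ratios varied little between arrays, with SDs of 0.03 to 0.07 (n = 6 arrays) and a median of 0.05, as in the 63 other tested miRNAs with 2 detected probes (median 0.05). For 7 of 8 members the gap between probes thus exceeded 0.60. That was the gap between let-7f and let-7a, the 2 brightest members by their brighter probes.

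Both probes gave the same sign of the genotype difference in 8 of 8 members, and in 62 of 63 other miRNAs. Over the 16 probes the differences ran from -0.16, for the dimmer let-7i probe, to 0.31, for the brighter miR-98 probe. The smallest limma adjusted p among them was 0.617 in a fit over 251 probes. The genotypes were apart for 1 of the 16 probes, the brighter let-7d probe, against 11.6% of the 251 probes. The dimmer let-7d probe stood at 0.15, 0.19 and 0.14 in KO and 0.20, -0.03 and 0.0012 in WT, with WT replicate 1 the highest. The log2 ratio of brighter to dimmer probe was higher in KO for 7 of 8 members, and for 47 of all 71 such miRNAs. It separated the genotypes for let-7d and let-7i, 2 of 8 members, against 12.7% of the 71. For let-7i the ratio was 0.8316, 0.7549 and 0.8286 in KO and 0.7451, 0.653 and 0.7455 in WT, so the separation was narrow.

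WT replicate 1 was the array on which the members' proportions departed most. Set against the mean of the 8 members on the same array, and against each probe's own average, let-7b stood 0.21 higher there, let-7a 0.14, let-7c 0.13 and let-7d 0.11. let-7f stood at -0.15 and miR-98 at -0.46, while let-7g, at -0.01, and let-7i, at 0.02, barely moved. The dimmer probes gave the same pattern, with 0.21 for let-7b and -0.47 for miR-98. The subtracted mean was that of the brighter probes in both cases, and both probes read the same RNA. Their likeness is therefore partly built in. let-7e stood 0.81 higher on that array by either probe. miR-98 also stood at 0.35 in KO replicate 3, an array on which let-7i was at -0.24.

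**Figure D5:**
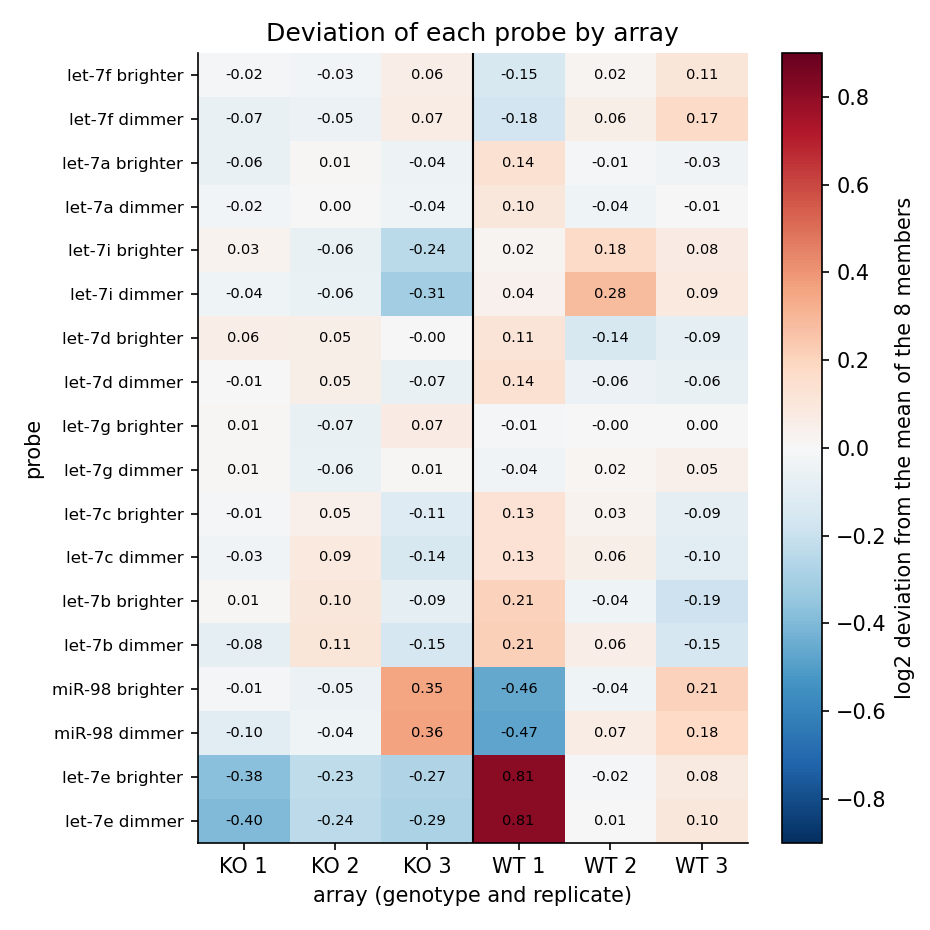
Deviation of each probe of the 8 members and of let-7e in log2 units (colour and printed number), after subtracting the mean of the 8 members on each array and the probe's own average over the arrays, with the KO arrays left of the WT arrays. The mean subtracted is that of the brighter probes in all rows. The brighter and dimmer probes of a member show alike rows. The WT 1 column holds the widest spread of deviations, from -0.47 for miR-98 to 0.81 for let-7e.

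Most members were among the steadiest miRNAs under the scaling used here. Over the 6 arrays the SD of log2 signal was 0.07 for let-7a, 0.08 for let-7c, 0.09 for let-7i and 0.10 for let-7g, which ranked 1, 2, 3 and 5 of 110 miRNAs detected on all arrays, smallest SD ranked as 1. let-7f (0.12), let-7d (0.14) and let-7b (0.15) ranked 7, 13 and 15, and miR-98 (0.32) ranked 77, against a median of 0.24. Among miRNAs with a mean log2 signal above 0, the 6 members had a median SD of 0.09 and the 26 other miRNAs one of 0.24. The ranks depended on the scaling. They ran from 2 to 83 with quantile scaling, where let-7a ranked 44, and with no scaling from 32 to 86, where it ranked 50. The members' median SD was 0.16 with quantile scaling, against 0.23 over the 110 miRNAs. It was 0.31 against 0.32 with no scaling, and 0.09 against 0.23 with gene-level totals. The members' 16 probes were among the 200 that set the scaling used here. These ranks are descriptions and the comparison was looked for after the values were seen.

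Ratios between members were steadier for some pairs than for others. Over 28 pairs the SD of the log2 ratio across the 6 arrays ran from 0.05 to 0.40, with a median of 0.17. The closest were let-7a with let-7c (0.05), let-7b with let-7c (0.07) and let-7f with let-7g (0.08). Closeness in sequence or on the chromosome did not go with a small SD in every pair. let-7a and let-7c differ by A19G, and the let-7b and let-7c genes are neighbours, yet let-7a and let-7f, with 1 base between their sequences and neighbouring genes, stood at 0.15. let-7d with let-7f stood at 0.17, and let-7f with miR-98, neighbours on chromosome X, at 0.20. Each of these exceptions includes let-7f. let-7a with let-7d, also both encoded on chromosome 13, stood at 0.09. The widest were miR-98 with let-7b (0.40), with let-7c (0.37) and with let-7i (0.36). Against the mean of the other members, let-7g followed the family most closely (SD 0.05) and miR-98 least (0.32). Outside the family, the 5 miRNAs with the smallest SD of log2 signal minus the family mean were miR-93 (0.12), miR-290-3p (0.12), miR-15b (0.13), miR-16 (0.14) and miR-103 (0.14), of 96 candidates with a median of 0.25. miR-290-3p lay near the floor of the scale, at or close to -4.32 in WT. All these values rest on 6 arrays scaled by a common reference.

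Related RNAs of the let-7 loci gave no call either. Of 7 let-7 passenger strands on the array, the less used strands of the hairpins, 5 were detected on no array. let-7b* differed by 0.48 (SE 0.22) and let-7f* by 0.36 (SE 0.18), with a limma adjusted p = 0.637 each and values near the floor. Without KO replicate 2 let-7b* stood at 0.27. Both were higher in KO on average, with overlap between genotypes. Of 5 miRNAs whose genes neighbour let-7 genes, 4 were tested and 0 were called, and the 3 detected in both genotypes had lower means in KO, with a median difference of -0.46. miR-125a-5p stood at -0.53 and miR-99b at -0.46, both from the let-7e locus, and miR-125b-5p at -0.19 (limma adjusted p = 0.637, 0.637 and 0.702). Without WT replicate 1 they stood at -0.17, -0.18 and -0.29, and miR-125b-5p stood at -0.08 without KO replicate 1. miR-99a, which precedes a let-7c gene, was detected on 3 of 3 WT arrays and on 0 KO arrays, all close to the floor, so it entered the test through WT alone and no fold is given. miR-100 was detected on no array, and miR-202-3p, a miRNA with a related seed, was detected on too few arrays to be tested.

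The samples carried the miRNAs that had been listed for the labelled cell type. All 6 miRNAs listed as macrophage or myeloid, miR-223, miR-142-3p, miR-142-5p, miR-155, miR-21 and miR-146a, were detected on all 6 arrays. How specific they are to macrophages was not tested, and the lymphoid list held only 1 miRNA, miR-150. The 20 markers of other cells (lymphoid, erythroid and platelet, stromal, endothelial, muscle and epithelial) were detected on none, with summed totals of 12.02 to 18.44 units in KO and 13.81 to 33.44 in WT. In bulk RNA, fewer cells of a type and less RNA per cell cannot be told apart.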

How the data were processed

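Per the file headers, Agilent Feature Extraction 10.5.1.1 subtracted background from the intensity of each spot and removed spatial trends. Version 9.1 is named in the submitters' processing notes. The deposited gene-level tables hold total intensity per miRNA, not normalized between arrays. The series matrix deposited by the authors has log2 values, and the steps behind them are not given in the sources used here. They tracked log2 gene-level totals of the same array (correlation 0.999 or more over miRNAs with totals above 5), with column medians of 0 to 0.03 and the same maximum on 5 of 6 arrays. They were not centred per miRNA, and direction does not arise for 1-colour arrays.

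The median processed intensity over unflagged spots was taken for each of 1759 probes. The scaling factor of an array was its 75th percentile over 200 probes detected on all arrays. Values were divided by it, raised to a floor (-4.32 on the log2 scale) and put on a log2 scale, and each miRNA took its probe with the highest mean. Genotypes, from sample titles, were compared over 135 miRNAs with limma 3.58.1 (lmFit, eBayes; R 4.3.3), two-sided and without covariates, with Benjamini-Hochberg adjustment at 0.05. Shares, orders, probe ratios and lists were described without tests. No miRNA spot was saturated, all arrays lay on 1 slide, and the number of arrays limits the precision.

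Named miRNAs were the 8 members, let-7e, listed relatives, the 5 most alike miRNAs, the 3 closest and 3 widest member pairs and the 3 brightest non-members. Members and lists were chosen with earlier results of these data known. Alternatives covered background correction, scaling, filters, probe rule, source of values, blocks, the variance model and each array left out. Normexp took the median spot signal, because no mean signal was given, and an offset of 50.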

Additional observations from a re-analysis of the deposited data

How the results depend on the processing

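Over 19 alternatives for each of the 8 members, 19 of 152 differences turned negative, 1 was 0 (let-7i in the series matrix) and 132 kept their direction. limma called 0 miRNAs higher and 0 lower in every alternative. The 2 probes of a member gave the same sign in 7 of 8 members with normexp, and in 8 of 8 with the mean over spots. With no scaling let-7a stood at -0.41, let-7b at -0.33, let-7c at -0.39, let-7d at -0.26, let-7f at -0.33, let-7g at -0.33 and miR-98 at -0.15. With the 75th percentile over all probes let-7a stood at -0.12, let-7b at -0.039, let-7c at -0.11, let-7f at -0.043 and let-7g at -0.044. With gene-level totals let-7a stood at -0.039, let-7b at -0.032, let-7c at -0.045 and let-7g at -0.014. In the series matrix let-7b stood at -0.034 and let-7c at -0.025, and with normexp let-7a stood at -0.0087. The family mean of 0.11 became 0.079 with normexp, -0.053 with all probes, 0.072 with quantile scaling, -0.34 with no scaling, 0.068 with the second brightest probe, -0.013 with gene-level totals and 0.070 in the series matrix. The cause of these moves was not tested beyond the median tested miRNA, which moved too. Leaving out each array in turn gave family means of 0.09 to 0.13, and the family's share difference, -0.0075 percentage points, ran from -0.49 without WT replicate 2 to 0.29 without WT replicate 3.

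At an unadjusted p under 0.05, 5 miRNAs were higher and 1 lower in KO, against 27 and 3 with normexp, 0 and 5 with all probes, 1 and 8 with quantile scaling, 0 and 26 with no scaling, 1 and 6 with gene-level totals and 1 and 8 in the series matrix. Arrays of the same replicate number deviated together with correlations of 0.17, -0.07 and 0.37, and arrays of unlike number with -0.29 to 0.16. With 3 arrays per genotype these values cannot settle whether the numbers pair the samples. The replicate block left the family mean at 0.11 and gave 0 calls, with 11 higher and 2 lower at an unadjusted p under 0.05. The 95% intervals do not cover the shifts between scalings.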

Other observations

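Deviations on WT replicate 1 were set beside the middle of the sequence after the values were seen. Each is the log2 signal minus the mean of the 8 members on that array, and minus the miRNA's own average of this difference over the 6 arrays. The 4 members with the bases of let-7a at positions 11 and 12, let-7a, let-7b, let-7c and let-7d, deviated by 0.11 to 0.21 there, and let-7e, which also has these bases, by 0.81. Of the 4 members with a substitution there, let-7f (G12A) deviated by -0.15 and miR-98 (G11A) by -0.46. let-7g and let-7i (both G12U) were at -0.01 and 0.02. Deviations of the 8 members balance out on an array, so the low value of miR-98 raised the others. Without subtracting the family mean, the deviations on WT replicate 1 were 0.07 to 0.16 for the 4 members without a substitution. They were -0.50 to -0.02 for the 4 with one. Across 6 arrays the SD of the log2 ratio was 0.05 to 0.10 for the 6 pairs of the 4 members without such a substitution. It was 0.08 to 0.36 for the 6 pairs among the 4 with one, and 0.10 to 0.40 for the 16 mixed pairs. The upper ends of these last ranges were pairs with miR-98, the dimmest and most variable member. Without miR-98 they were 0.17 and 0.23 in the same order. Ratios of let-7e to the 8 members had SDs of 0.37, to let-7a, up to 0.66, to miR-98, so let-7e lay outside the range of the pairs that share these bases with it. By the number of differing bases, the median SD was 0.07 for the 3 pairs that differ at 1 base and 0.13 for the 8 pairs at 2 bases. It was 0.20 for the 7 pairs at 3 bases, 0.17 for the 9 pairs at 4 bases and 0.20 for the 1 pair at 6 bases. Pairs with miR-98 were among those at 2, 3 and 4 bases and not among those at 1 base. The pairs share members and arrays, so these are descriptions.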
